A study of Homo sapiens with 6 samples.

Results

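The genes examined were MET, MST1R, HGF, AXL, TYRO3, MERTK and GAS6, which encode 5 receptor tyrosine kinases and 2 of their ligands. They were chosen by symbol, with earlier results of these data known, and are 7 of the 20811 genes measured. The cells were HuCCT1, a human intrahepatic cholangiocarcinoma line, grown in RPMI with fetal bovine serum. HuCCT1/CD90+ cells had received the lentivirus THY1-CMV-GFP at an MOI of 40 (THY1 encodes CD90). HuCCT1/CD90- cells had received Lenti-CMV-GFP-2A-Puro-Blank Lentivirus at the same MOI. Both vectors carried GFP and a CMV promoter, and no untransduced cells were included. Each line was measured in 3 libraries, and nothing in the labels says that these came from separate cultures, so p-values measure only the spread between libraries, which may be technical. Only 1 line of each kind was measured, so THY1 itself and other differences between the lines cannot be told apart.

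MET is the receptor of HGF (hepatocyte growth factor), and MST1R, also called RON, is the receptor of MST1 (macrophage stimulating protein, MSP). Both ligands are secreted as inactive precursors that serine proteases must cut before they activate the receptor, and in epithelial cells they are known for driving growth, scattering and survival. TYRO3, AXL and MERTK form the TAM family, whose ligands GAS6 and PROS1 (protein S) need vitamin K-dependent carboxylation and bridge the receptor to phosphatidylserine on membranes. TAM receptors are known for clearance of dying cells by macrophages and, in tumours, for survival and drug tolerance.

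RNA was read with an Ion AmpliSeq panel that holds 1 amplicon per gene, and values are RPM, the reads of a gene scaled to a common library total. The libraries held 8587634 to 10551516 reads, so the 3 reads taken as the detection floor were worth 0.284 to 0.349 RPM. THY1 was read 435, 445 and 680 times in HuCCT1/CD90+ cells against 0, 1 and 0 times in HuCCT1/CD90- cells, which matches the labels. Amplicons differ in efficiency, so levels of different genes were not compared. A gene was called higher or lower when limma on log2(RPM + 1) gave a fold of at least 1.5 and a Benjamini-Hochberg p, adjusted over all genes, no higher than 0.05. Adjusted p-values without another name are from this test. The scale understates changes of genes with few reads.

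Of the 7 genes, 4 were higher in HuCCT1/CD90+ cells (MET, MST1R, TYRO3 and MERTK) and 0 were lower. Over all genes 15.1% were called in either direction and 7.59% were called higher, and 24.6% were called among genes that averaged 1 RPM or more in either line. The median log2 difference was 0.85 over the 7 genes and 0.00 over all genes. With an unadjusted p of at most 0.05 at the same fold, the same 4 genes passed, beside 20.1% of all genes. AXL was slightly higher without passing the call, GAS6 did not pass either and HGF had no reads. The HuCCT1/CD90+ libraries all lay above the HuCCT1/CD90- libraries for 5 of the 7 genes, beside 17.3% of all genes. In bulk RNA, fewer cells expressing a gene and less RNA per cell cannot be told apart.

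**Figure D1:**
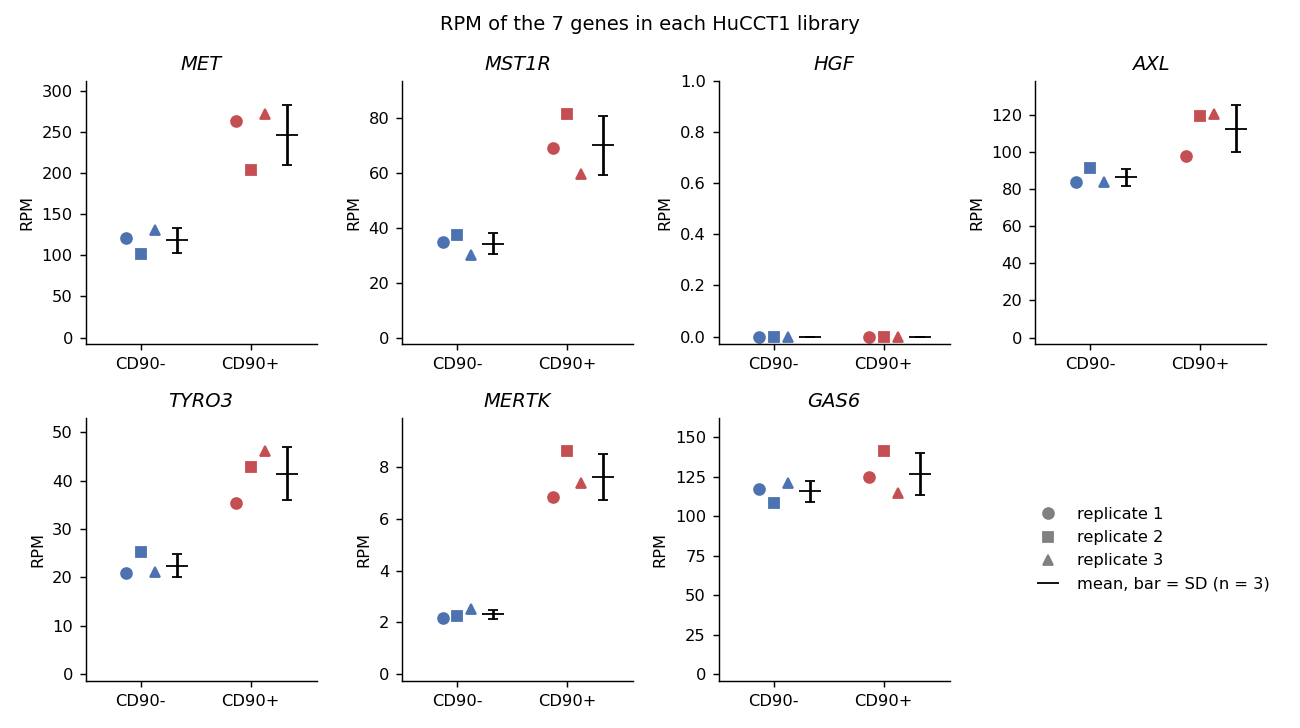
RPM of each gene in the 3 HuCCT1/CD90- and 3 HuCCT1/CD90+ libraries, 1 panel per gene with its own axis from 0. Points are libraries with their replicate numbers, dashes are means and vertical bars are SD (n = 3). MET, MST1R, TYRO3, MERTK and AXL separate the lines without overlap, GAS6 overlaps, and HGF is at 0 throughout.

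The sequences upstream of MET and MST1R are shown because these paired receptors rose by nearly the same fold from different chromosomes. Each is the 250 bases before the RefSeq transcription start (GRCh38.p14), 5′ to 3′ on the gene's strand. Capitals mark matches, on either strand, to the motifs searched: the GC box GGGCGG, the AP-1 motif TGANTCA, the E-box CAGGTG, the TEAD motif GGAATG and the ETS core CCGGAA.
MET, chr7:116671946-116672195, plus strand: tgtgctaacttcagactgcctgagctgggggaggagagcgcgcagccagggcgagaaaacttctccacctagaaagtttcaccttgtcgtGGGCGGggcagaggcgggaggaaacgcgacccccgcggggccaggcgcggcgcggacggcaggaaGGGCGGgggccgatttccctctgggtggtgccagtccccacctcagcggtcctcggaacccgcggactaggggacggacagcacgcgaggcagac
MST1R, chr3:49903874-49904123, minus strand: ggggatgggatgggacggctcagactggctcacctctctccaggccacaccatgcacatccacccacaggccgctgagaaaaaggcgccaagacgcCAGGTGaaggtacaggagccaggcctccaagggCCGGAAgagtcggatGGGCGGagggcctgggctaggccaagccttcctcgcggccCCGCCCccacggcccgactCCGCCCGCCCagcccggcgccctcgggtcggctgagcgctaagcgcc
The MET window had a GC content of 68.4% with 24 CpG sites, and the MST1R window 70.8% with 20, beside medians of 58.0% and 11 over the 35116 promoters of the RefSeq table. An annotated antisense noncoding gene overlaps the MST1R window. GC boxes matched 2 times in the MET window and 4 times in the MST1R window, and 42.6% of all promoters held at least 1. The E-box and the ETS core each matched 1 time in the MST1R window and not in the MET window, and were held by 17.5% and 14.5% of all promoters. The AP-1 motif (6.57% of promoters) and the TEAD motif (11.9%) matched in neither. The RefSeq table holds 2 starts for TYRO3. Upstream of the first entry there were 3 GC boxes and 1 AP-1 motif, upstream of the second none of the motifs matched, and upstream of MERTK 4 GC boxes. Members that were not called also held matches. GAS6 had 3 GC boxes and 1 E-box, and HGF had 1 TEAD motif. AXL had 2 GC boxes and 1 E-box at its first entry, and 1 TEAD motif and 1 ETS core at its second. A match is a description of these letters, and binding was not measured.

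MET was higher in HuCCT1/CD90+ cells by 2.09-fold. It stood at 121, 102 and 131 RPM in HuCCT1/CD90- replicates 1 to 3 and at 264, 204 and 271 RPM in HuCCT1/CD90+ replicates 1 to 3. The lowest HuCCT1/CD90+ library was well above the highest HuCCT1/CD90- library. Means were 118 ± 14.9 and 246 ± 36.8 RPM (SD, n = 3 each), and the log2 difference was 1.05 (SE 0.16, 95% interval 0.62 to 1.48, adjusted p = 0.017). The call was lost without HuCCT1/CD90- replicate 1 or 2 or HuCCT1/CD90+ replicate 1 or 3 (adjusted p 0.051 to 0.066), while the log2 difference stayed between 0.95 and 1.18. Tests on the recovered reads gave log2 differences of 1.06 (edgeR, adjusted p = 1.4e-05) and 1.07 (DESeq2, adjusted p = 5.0e-10).

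MET lies at chr7:116672390-116798386 (GRCh38, plus strand), and genes around it were also higher as a group. Of the 50 nearest genes that averaged 10 RPM or more, spread over 27.5 Mb, 46 had a log2 difference above 0, 21 were called higher and 0 lower. Their median log2 difference was 0.60, and 9 of them rose more than MET. Over the 401 genes of chromosome 7 with this mean the median was 0.52, beside 0.01 over the 8682 placed genes of all chromosomes with this mean. With the median of the neighbours removed, the log2 difference of MET was 0.45 (limma, adjusted p = 0.15) and no longer called. DNA copy number was not measured.

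MST1R rose by a similar fold, 2.05. It stood at 34.9, 37.5 and 30.2 RPM in HuCCT1/CD90- replicates 1 to 3 and at 69.0, 81.2 and 59.7 RPM in HuCCT1/CD90+ replicates 1 to 3, again without overlap. In both lines replicate 2 was the lowest for MET and the highest for MST1R. Means were 34.2 ± 3.69 and 70.0 ± 10.8 RPM (SD, n = 3 each), and the log2 difference was 1.01 (SE 0.15, 95% interval 0.62 to 1.40, adjusted p = 0.016). The call was lost without HuCCT1/CD90- replicate 1 or 3 or HuCCT1/CD90+ replicate 1 (adjusted p 0.053 to 0.061). MST1R lies at chr3:49887002-49903873 (minus strand), where, unlike around MET, the 50 neighbours had a median log2 difference of -0.26, with 3 called higher and 12 lower. With the neighbour median removed its log2 difference was 1.26 (limma, adjusted p = 0.0094).

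**Figure D2:**
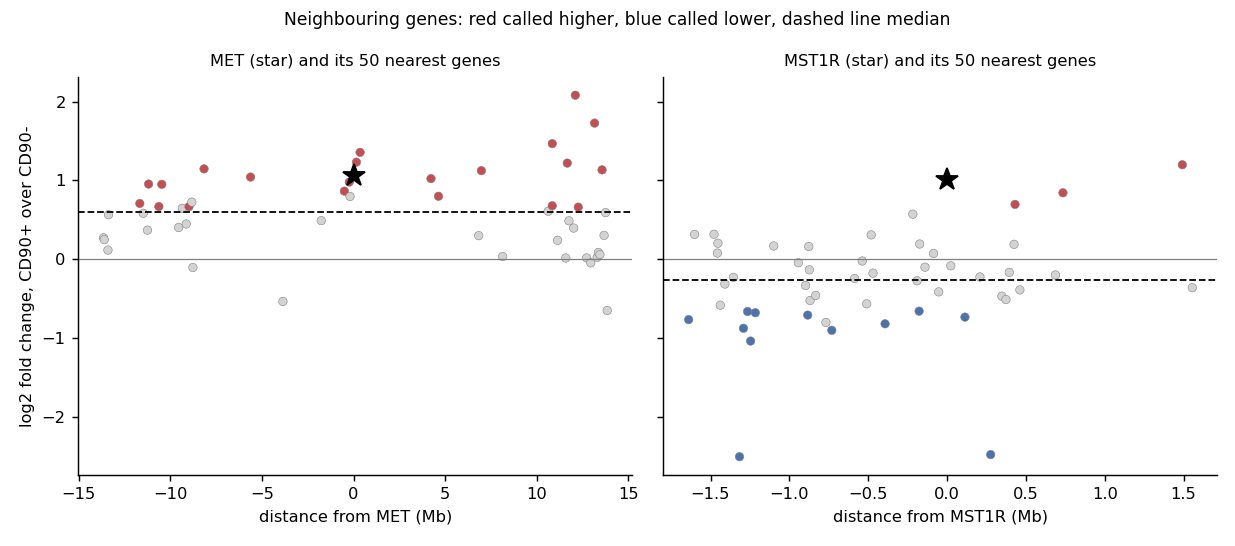
Log2 differences (HuCCT1/CD90+ minus HuCCT1/CD90-) of MET and MST1R (stars) and of their 50 nearest genes averaging 10 RPM or more (points), against distance in Mb. Red points are called higher, blue points called lower, and the dashed line is the median of the neighbours, at 0.60 around MET and -0.26 around MST1R.

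The balance of MST1R to MET differed between the lines by less than its spread. The log2 ratio of MST1R to MET was -1.77, -1.42 and -2.08 in HuCCT1/CD90- replicates 1 to 3 and -1.92, -1.32 and -2.17 in HuCCT1/CD90+ replicates 1 to 3. It changed by -0.04, less than the SD within either line (0.33 and 0.44; exact permutation test, two-sided, p = 0.90, adjusted over 5 ratios 0.90). With 3 libraries against 3, the smallest p this test can give is 0.10. Replicate 2 held the highest ratio and replicate 3 the lowest in both lines, and the test did not pair libraries by replicate number. Within replicate numbers, HuCCT1/CD90+ lay below HuCCT1/CD90- for replicates 1 and 3 and above it for replicate 2.

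MERTK had the largest RPM fold of the TAM receptors. It stood at 2.18, 2.25 and 2.52 RPM in HuCCT1/CD90- replicates 1 to 3 and at 6.86, 8.62 and 7.38 RPM in HuCCT1/CD90+ replicates 1 to 3, which do not overlap. These values rest on 21 to 26 and on 64 to 74 reads. Means were 2.32 ± 0.181 and 7.62 ± 0.902 RPM (SD, n = 3 each), 3.29-fold in RPM, and the log2 difference was 1.37 (SE 0.09, 95% interval 1.13 to 1.62, adjusted p = 0.0021). The log2 difference depended on the offset, at 1.67 with 0.1 RPM and 0.78 with 5 RPM, where it lay below those of MET and MST1R (1.02 and 0.93). MERTK was called under every omission of 1 library (adjusted p 0.0058 to 0.016). It lies at chr2:111898479-112029561 (plus strand), where the median of its neighbours was 0.00 and 2 of 50 rose more.

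TYRO3 rose by 1.85-fold. It stood at 20.9, 25.3 and 21.1 RPM in HuCCT1/CD90- replicates 1 to 3 and at 35.4, 42.9 and 46.1 RPM in HuCCT1/CD90+ replicates 1 to 3, without overlap. Means were 22.5 ± 2.43 and 41.5 ± 5.51 RPM (SD, n = 3 each), and the log2 difference was 0.85 (SE 0.13, 95% interval 0.50 to 1.21, adjusted p = 0.019). The call was lost with the replicate number as a block (limma, adjusted p = 0.056) and without HuCCT1/CD90- replicate 1 or 3 or HuCCT1/CD90+ replicate 2 or 3 (adjusted p 0.062 to 0.070). TYRO3 lies at chr15:41557675-41583586 (plus strand), and its processed pseudogene TYRO3P could share reads, so the level is uncertain.

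AXL was higher in every HuCCT1/CD90+ library but by a smaller fold, 1.30. It stood at 83.5, 91.5 and 83.4 RPM in HuCCT1/CD90- replicates 1 to 3 and at 97.9, 119 and 120.0 RPM in HuCCT1/CD90+ replicates 1 to 3. Means were 86.1 ± 4.63 and 112 ± 12.6 RPM (SD, n = 3 each), and the log2 difference was 0.37 (SE 0.10, 95% interval 0.11 to 0.64, adjusted p = 0.072). The interval of the fold ran from 1.08 to 1.56, and the adjusted p was 0.028 with DESeq2 and 0.039 with edgeR after filtering, in both cases at a fold below 1.5. It was 0.024 (limma) without HuCCT1/CD90+ replicate 1. AXL lies at chr19:41219203-41261766 (plus strand).

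The balance between TAM receptors was read as a log2 ratio within each library, and 3 ratios were lower in every HuCCT1/CD90+ library than in any HuCCT1/CD90- library. AXL to TYRO3 was 1.90 ± 0.07 in HuCCT1/CD90- and 1.42 ± 0.05 in HuCCT1/CD90+ (SD, n = 3 each). AXL to MERTK was 4.72 ± 0.13 and 3.72 ± 0.12, and TYRO3 to MERTK 2.82 ± 0.18 and 2.30 ± 0.17. Each of these 3 changes reached the smallest p possible, 0.10 (exact permutation test, two-sided, adjusted over 5 ratios 0.17), so none passes 0.05. The changes that involve MERTK depended on the offset. AXL to MERTK changed by -1.29 with 0.1 RPM and -0.42 with 5 RPM, and TYRO3 to MERTK by -0.79 with 0.1 RPM and -0.029 with 5 RPM.

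**Figure D3:**
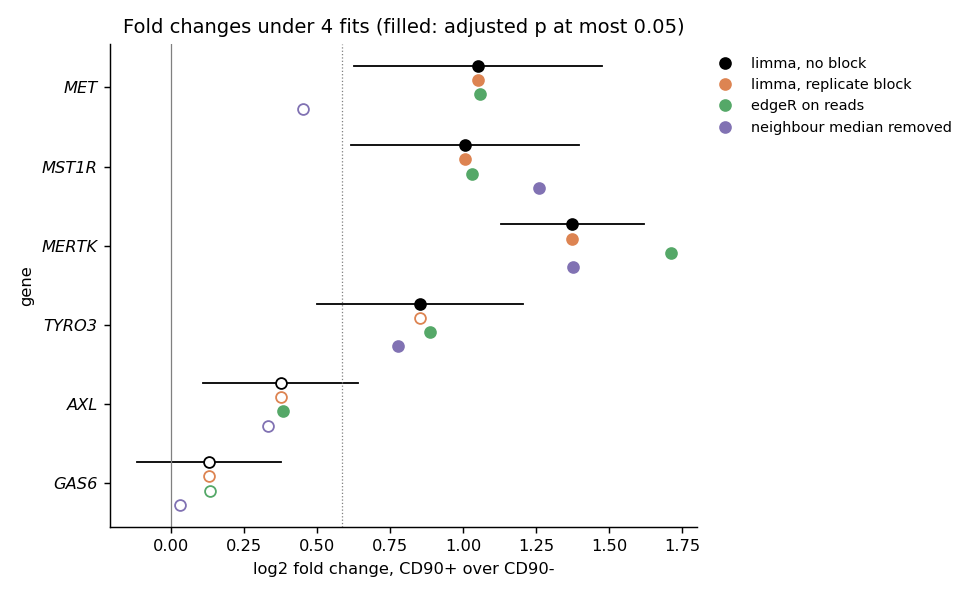
Log2 differences (HuCCT1/CD90+ minus HuCCT1/CD90-) of the genes under 4 fits, with 95% intervals for limma without a block. Filled points passed an adjusted p of 0.05, and the dotted line marks a fold of 1.5. In limma without a block MERTK lies at 1.37, MET and MST1R lie at 1.05 and 1.01, and the interval of GAS6 spans 0.

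GAS6, the ligand of the TAM receptors, and HGF, the ligand of MET, were not called. GAS6 stood at 117, 109 and 121 RPM in HuCCT1/CD90- replicates 1 to 3 and at 125, 141 and 115 RPM in HuCCT1/CD90+ replicates 1 to 3, with overlap. Its log2 difference was 0.13 (SE 0.09, 95% interval -0.12 to 0.38, limma adjusted p = 0.47), which leaves room for a fold between 0.922 and 1.30. The log2 ratio of GAS6 to AXL went from 0.42 to 0.18 (exact permutation test, p = 0.20). GAS6 lies at chr13:113820549-113864067 (minus strand). HGF, at chr7:81699008-81770438 (minus strand), had 0 reads in all 6 libraries, which allows up to 0.284 to 0.349 RPM per library, although the genes around it had a median log2 difference of 0.61. PROS1 had means of 7.74 and 4.80 RPM (limma, log2 difference -0.58, adjusted p = 0.13). MST1, whose copy MST1L could share reads, had means of 6.27 ± 1.06 and 4.34 ± 0.921 RPM (log2 difference -0.45, limma adjusted p = 0.18). For PROS1 and MST1, neither of which was called, every HuCCT1/CD90+ library lay below every HuCCT1/CD90- library.

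In the list of other ligands and of enzymes that carboxylate GAS6 and PROS1, 2 of 9 genes were higher and 2 lower (median log2 difference -0.22), and 0 were higher with the replicate block. Without the block, 44.4% of the list was called, beside 15.1% of all genes and 24.6% of genes averaging 1 RPM or more in either line. GGCX, the carboxylase, fell from 102 ± 5.95 to 60.1 ± 2.95 RPM (log2 difference -0.75, limma adjusted p = 0.0033). VKORC1, which recycles vitamin K, fell from 168 ± 17.1 to 91.8 ± 12.2 RPM (-0.87, limma adjusted p = 0.019), a call lost without HuCCT1/CD90- replicate 1 or 2 or HuCCT1/CD90+ replicate 1 (0.059 to 0.069) and with the neighbour median removed (0.0504). Its paralog VKORC1L1 rose from 45.9 to 70.7 RPM (limma, adjusted p = 0.044), a call lost without any 1 of the 6 libraries (0.053 to 0.13), with the replicate block (0.17) and with the neighbour median removed (0.95). LGALS3, the lectin galectin-3 and a MERTK ligand, rose from 195 ± 19.1 to 330 ± 18.6 RPM (limma, log2 difference 0.76, adjusted p = 0.0095, and 0.065 with the block). With the neighbour median removed LGALS3 lost its call, as the fold came below 1.5 (limma, adjusted p = 0.027).

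Genes that activate pro-HGF and pro-MSP and the inhibitors of those proteases included 5 of 13 that were higher and 0 lower. The median log2 difference over the 13 was 0.05, with 5 genes at the floor in both lines. Called genes make 38.5% of this list, beside 15.1% of all genes and 24.6% of genes averaging 1 RPM or more in either line. ST14 (matriptase), a membrane serine protease that can cut both precursors, stood at 18.1, 17.0 and 12.9 RPM in HuCCT1/CD90- replicates 1 to 3 and at 369, 369 and 383 RPM in HuCCT1/CD90+ replicates 1 to 3, a 23.3-fold rise (limma, adjusted p = 0.00043). TMPRSS13, a related protease, had no reads in HuCCT1/CD90- and stood at 8.26, 11.2 and 10.3 RPM in HuCCT1/CD90+ replicates 1 to 3, at least 30.9-fold higher against the highest HuCCT1/CD90- floor of 3 reads (limma, adjusted p = 0.00045). TMPRSS2 rose from 0.887 ± 0.624 to 9.87 ± 2.12 RPM (limma, adjusted p = 0.0085). Of the protease inhibitors, SPINT2 (HAI-2) went from 357 ± 22.9 to 908 ± 118 RPM (limma, adjusted p = 0.0037), and SPINT1 (HAI-1), which restrains matriptase, from 129 ± 36.3 to 394 ± 65.6 RPM (limma, adjusted p = 0.022). The SPINT1 call was lost without HuCCT1/CD90- replicate 3 or any 1 HuCCT1/CD90+ library (0.053 to 0.083). SERPINA5, a serpin that inhibits several such proteases, went the other way without passing the call, at 3.32, 6.31 and 4.07 RPM in HuCCT1/CD90- replicates 1 to 3 and at 2.04, 1.28 and 0.868 RPM in HuCCT1/CD90+ replicates 1 to 3 (log2 difference -1.21, limma adjusted p = 0.055). It was called lower by edgeR after filtering (-1.69, adjusted p = 0.00097) and DESeq2 (-1.70, adjusted p = 0.0013). HGFAC, the HGF activator of plasma, and PLG had no reads, and PLAU did not pass (238 and 328 RPM, limma adjusted p = 0.13).

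Of 17 membrane partners, 5 were higher and 3 lower, and the median log2 difference was -0.09. Those called make 47.1% of the list, beside 15.1% of all genes and 24.6% of genes averaging 1 RPM or more in either line. CD44, whose variant forms present HGF to MET, rose from 1.67 ± 0.505 to 14.7 ± 0.457 RPM (log2 difference 2.57, limma adjusted p = 0.0018). ERBB3, a kinase-poor receptor that can be phosphorylated beside MET, stood at 9.48, 17.4 and 13.4 RPM in HuCCT1/CD90- replicates 1 to 3 and at 60.4, 74.6 and 65.3 RPM in HuCCT1/CD90+ replicates 1 to 3 (limma, log2 difference 2.26, adjusted p = 0.0069). SEMA4D, a semaphorin whose receptor plexin-B1 can couple to MET and RON, rose from 0.540 ± 0.332 to 18.7 ± 2.43 RPM (limma, adjusted p = 0.0014). LRP1, an endocytic receptor, fell from 131 ± 52.0 to 11.4 ± 2.99 RPM (log2 difference -3.37, limma adjusted p = 0.0095).

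Of 24 adaptors, 2 were higher and 2 lower, at a median log2 difference of 0.02. The 4 called make 16.7% of the list, beside 15.1% of all genes and 24.6% of those averaging 1 RPM or more in either line. With the replicate block 1 was higher and 1 lower. GAB1, the docking protein of MET, rose from 5.78 ± 2.24 to 18.7 ± 2.07 RPM (limma, adjusted p = 0.030), a call lost with the block (0.080) and without HuCCT1/CD90- replicate 3 or any 1 HuCCT1/CD90+ library (0.084 to 0.11), and with the neighbour median removed (0.0508). VAV1, a guanine nucleotide exchange factor of blood cells, rose from 6.20 to 25.9 RPM (limma, adjusted p = 0.011, and 0.051 without HuCCT1/CD90+ replicate 3). PIK3R1, the regulatory subunit of PI3-kinase, fell from 39.4 ± 7.09 to 22.1 ± 0.658 RPM (log2 difference -0.79, limma adjusted p = 0.028). Its call was lost with the block (0.067) and in each omission of 1 library except HuCCT1/CD90- replicate 2 (0.052 to 0.098). SHC1, an adaptor that links receptors to RAS, fell from 445 ± 47.3 to 293 ± 28.8 RPM (-0.60, limma adjusted p = 0.029). Its call was lost in each omission except HuCCT1/CD90+ replicate 2 (0.055 to 0.10) and with the neighbour median removed (0.20). GRB2 did not pass (log2 difference 0.25, limma adjusted p = 0.38).

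Among 23 genes of receptor turnover and braking, 2 were higher and 4 lower (median log2 difference -0.17). The 6 called make 26.1% of the list, beside 24.6% of all genes that averaged 1 RPM or more in either line. LRIG1, a transmembrane protein that promotes degradation of MET and other receptors, stood at 37.2, 42.2 and 37.7 RPM in HuCCT1/CD90- replicates 1 to 3 and at 3.22, 4.43 and 3.47 RPM in HuCCT1/CD90+ replicates 1 to 3 (log2 difference -3.10, limma adjusted p = 0.00059). DCN, a secreted proteoglycan that binds MET, stood at 2.27, 11.2 and 7.76 RPM in HuCCT1/CD90- replicates 1 to 3 and had 0, 1 and 0 reads in HuCCT1/CD90+ replicates 1 to 3, at least 20.3-fold lower against the highest HuCCT1/CD90+ floor of 3 reads (limma, adjusted p = 0.034). That call was lost with the block (0.086), with an offset of 5 RPM (0.079) and in each omission of 1 library except HuCCT1/CD90- replicate 1 (0.075 to 0.11). LRIG3 fell from 21.9 to 5.71 RPM (-1.77, limma adjusted p = 0.0024), and PTPRJ, a phosphatase that acts on MET, from 186 to 84.3 RPM (-1.14, limma adjusted p = 0.0037). MUC20, a mucin that binds MET, rose from 1.98 ± 0.430 to 406 ± 94.0 RPM (log2 difference 7.08, limma adjusted p = 0.00043), but near-identical copies could share its reads. CBLC, an epithelial ubiquitin ligase, rose from 12.1 to 70.8 RPM (limma, adjusted p = 0.0044), while CBL, the main ligase of MET, had a log2 difference of -0.04.

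**Figure D4:**
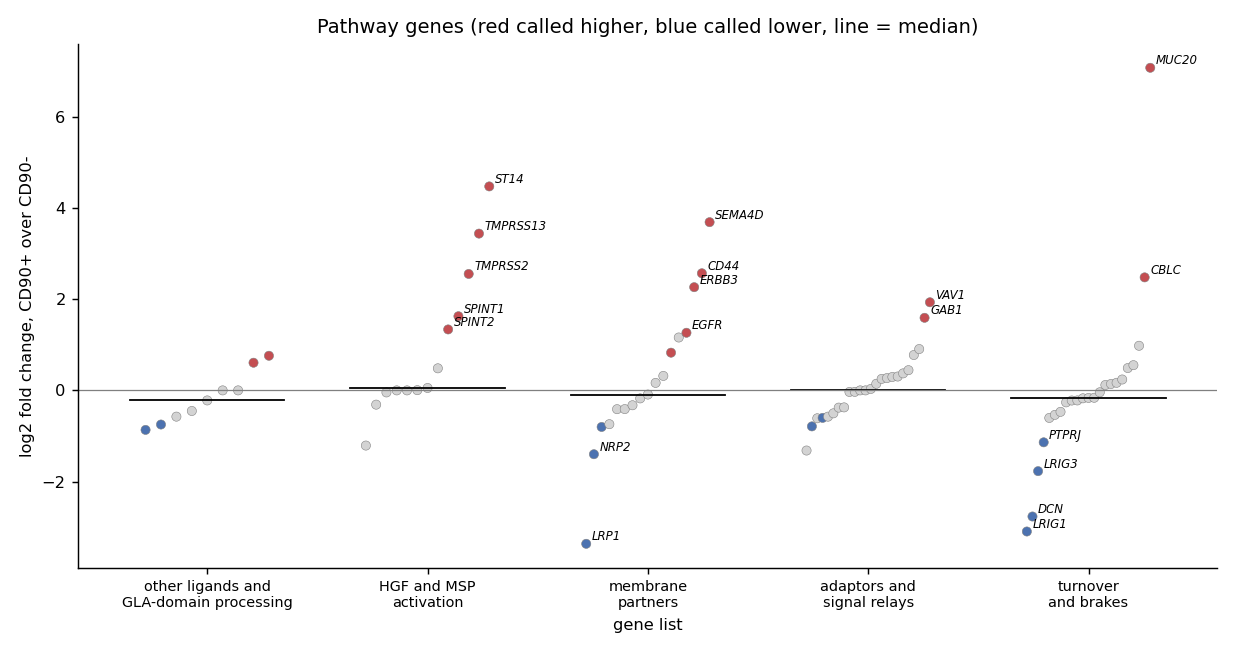
Log2 differences (HuCCT1/CD90+ minus HuCCT1/CD90-) of the genes of 5 pathway lists, 1 column per list, with genes called higher in red, genes called lower in blue and medians as lines. The activation list reaches 4.47 (ST14), MUC20 stands highest at 7.08, and LRP1 and LRIG1 lie lowest among the called genes at -3.37 and -3.10.

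The 4 called receptors were not alone among receptor tyrosine kinases. Of 53 others, 12 were higher and 9 lower, with a median log2 difference of 0.00, and 35 were above the floor. The called make 39.6% of the list, beside 15.1% of all genes. With the replicate block 7 were lower and 6 higher. EGFR, EPHA10, EPHB4, RYK, LMTK2 and LTK lost the higher call, and EPHA2 and TIE1 the lower call. With the neighbour median removed 8 were higher and 9 lower, and EGFR, EPHB4, RYK and LMTK2 lost the higher call. Of the 35 above the floor, 9 rose more than MET and 7 more than MERTK. On the log2(RPM + 1) scale, EPHB6, EPHB3 and STYK1 rose by 4.22, 3.54 and 3.52, and EPHA1, at the floor in HuCCT1/CD90-, was at least 18.4-fold higher, while EPHA5, at the floor in HuCCT1/CD90+, was at least 28.9-fold lower.

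**Figure D5:**
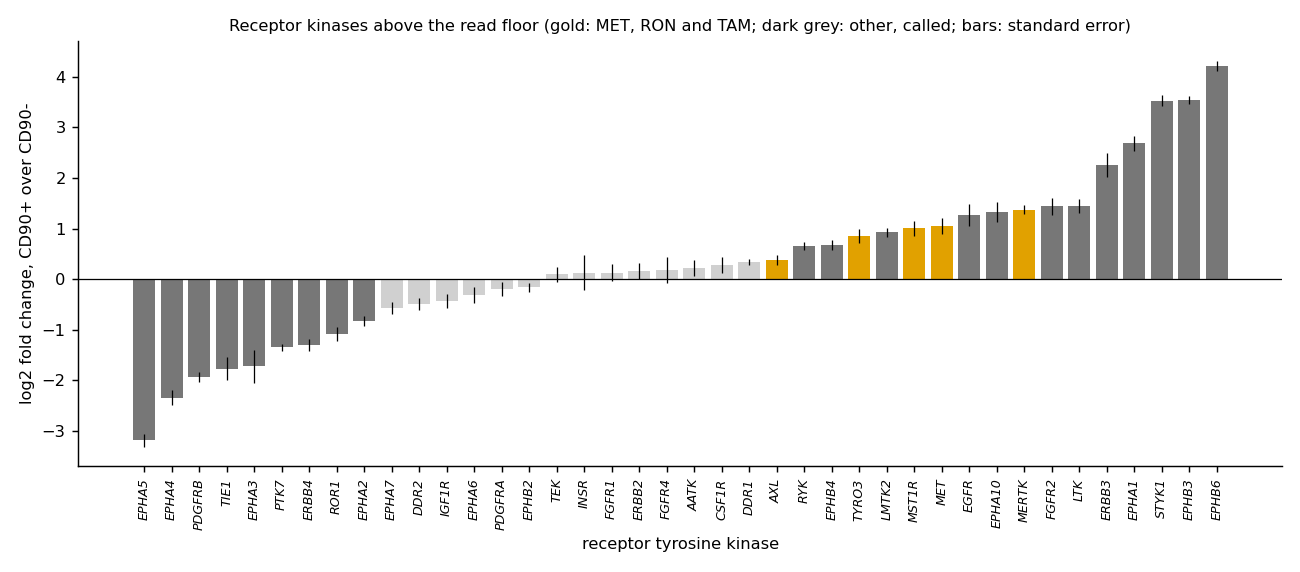
Log2 differences (HuCCT1/CD90+ minus HuCCT1/CD90-) of 40 receptor tyrosine kinases above the detection floor, in order, as bars with standard errors. Gold bars are MET, MST1R, AXL, TYRO3 and MERTK, which all lie above 0, between 0.37 and 1.37, and dark grey bars are other called receptors, from -3.18 (EPHA5, at the floor in HuCCT1/CD90+) to 4.22 (EPHB6).

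The genes whose profiles over the 6 libraries were most like MET, MST1R and TYRO3, the called receptors averaging 10 RPM or more in either line, were found by the root mean square distance of centred log2(RPM + 1) values, among 9222 genes. For MET these were SSR3 (0.0449), ERP44 (0.0536) and MYO6 (0.0659). For MST1R they were ASL, CNKSR1 and VOPP1 (0.0754 to 0.089), and for TYRO3 RRP7A, CD68 and ABHD2 (0.0416 to 0.0603).

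Markers of cell types that express these receptors in tissue were read beside them. The summed level of biliary epithelial markers was 8227 to 9328 RPM across HuCCT1/CD90- libraries and 11190 to 11980 RPM across HuCCT1/CD90+ libraries, with 4 of 8 higher and 0 lower. Macrophage markers, of interest for MERTK and AXL, summed to 132 to 155 and 89.5 to 108 RPM, with 1 of 9 higher and 2 lower, and PTPRC, CD163, C1QA and C1QB were at the floor in both lines. CD68, a lysosomal protein, rose from 50.8 to 92.2 RPM (limma, adjusted p = 0.0089), while CD14, a receptor for bacterial lipopolysaccharide, fell from 80.8 to 4.32 RPM (limma, adjusted p = 0.00037). Fibroblast markers summed to 41.8 to 65.3 and 20.4 to 24.7 RPM, with 5 of 8 lower. Endothelial markers summed to 17.7 to 26.7 and 0.965 to 1.98 RPM, with 2 of 6 lower. The share called was 50% for biliary epithelial, 62.5% for fibroblast, and 33.3% each for macrophage and endothelial markers. Beside these, it was 15.1% over all genes and 24.6% over genes averaging 1 RPM or more in either line. With the replicate block COL1A2, COL3A1 and DCN of the fibroblast list, TIE1 of the endothelial list and LYZ of the macrophage list lost their call (limma, adjusted p 0.064 to 0.10). The part of these shifts in the receptor values was not tested.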

How the data were processed

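Total RNA of 3 HuCCT1/CD90- and 3 HuCCT1/CD90+ libraries was amplified with the AmpliSeq panel for an Ion GeneStudio S5 Prime sequencer, and the authors counted reads per amplicon in Torrent Suite (ampliSeqRNA). The submitters' processing notes name hg19 and the Transcriptome Analysis Console. The deposited values are RPM for 20811 genes, unfiltered, of which 3805 were at 0 in all libraries. Whole reads could be recovered from the authors' RPM for every value (tolerance 0.05 reads). No molecular identifiers were used before PCR, and floors therefore reflect counting error alone.

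Values were taken to log2(RPM + 1) and compared by limma 3.58.1 in R 4.3.3 (lmFit, eBayes, no block), after the study's use of eBayes with a fold of 1.5. Recovered read counts were also tested with edgeR 4.0.16 and DESeq2 1.42.0. The tests were checked on simulated data. The members and lists were chosen with earlier results of these data known. Genes named are the members, up to 4 called genes per list with the largest change, ligands, activators or partners a sentence needs, the 3 most similar profiles per called receptor with a mean of at least 10 RPM, and, chosen after their values were seen, LRIG3, PTPRJ, SERPINA5, EPHA1, PLAT, the kinases that lost their call with the block, and the markers. SOCS1 was not matched, and TNS2 was taken as TENC1. Gene order came from RefSeq (95.2% of genes placed), gene coordinates from GENCODE (GRCh38), and amplicon positions were not used here.

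Libraries of 1 line differed by more than counting noise (chi-square per degree of freedom 9.18 to 25.2). Same-numbered libraries deviated together (r = 0.21, 0.32 and 0.18), so the numbers were taken to pair them from the data alone, and a blocked fit on those numbers was added to the alternatives. Other alternatives were offsets of 0.1 and 5 RPM, minimum means of 1 and 10 RPM, quantile normalization, median centring, trended robust eBayes, other call thresholds, removal of the neighbour median and leaving out each library.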

Additional observations from a re-analysis of the deposited data

How the results depend on the processing

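MERTK and MST1R kept their call under every alternative that used all 6 libraries and could include them, and MERTK, below 10 RPM, was not in the fit limited to genes of that mean. The log2 difference of MET fell to 0.45 with the neighbour median removed, and TYRO3, at 0.85, lost its call with the replicate block. Left out 1 at a time, libraries moved MET between 0.95 and 1.18, MST1R between 0.90 and 1.11 and TYRO3 between 0.77 and 0.96, and left 1 to 3 members called, with 1 called without HuCCT1/CD90- replicate 1.

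Counts of called genes per list depended more on the settings. For the other ligands, 1 gene was higher with an offset of 5 RPM, quantile normalization, median centring or trended robust eBayes, and 0 with the replicate block, the neighbour median removed or a minimum fold of 2, which also left 0 lower. Of the activation list, 3 were higher when genes had to average 10 RPM, and 1 (SERPINA5) was lower at a minimum of 1 RPM, with median centring, both edgeR fits, DESeq2, the neighbour median removed or unadjusted p-values. Membrane partners had 3 higher at 10 RPM and with neighbours removed. Adaptors had 4 higher at 1 RPM, in both edgeR fits and in DESeq2, and 1 with the replicate block or neighbours removed. They had 4 lower at 1 RPM, with median centring, edgeR or DESeq2, 1 with the block and 0 at a minimum fold of 2. Turnover genes had 4 higher with DESeq2 or without a minimum fold. Other receptor kinases had 7 higher and 4 lower at 10 RPM and 6 higher with the block. Leaving out 1 library gave 1 higher and 1 to 2 lower for the other ligands, 4 to 6 and 0 to 1 for activation (PLAT, without HuCCT1/CD90- replicate 1), 4 to 5 and 2 to 3 for partners, 0 to 2 and 0 to 1 for adaptors, 2 to 3 and 3 to 4 for turnover, and 9 to 11 and 8 to 9 for other kinases.

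The ratio of AXL to TYRO3 changed by -0.40 with an offset of 5 RPM, that of AXL to MERTK by -1.29 at 0.1 RPM and -0.42 at 5 RPM, and that of TYRO3 to MERTK by -0.79 and -0.029. With 1 library left out, the change in the log2 ratio of MST1R to MET between lines ranged from -0.28 to 0.14, and it turned above 0 without HuCCT1/CD90- replicate 2 (0.13) or HuCCT1/CD90+ replicate 1 (0.02) or 3 (0.14). The causes were not tested. At 21 to 74 reads, MERTK had the fewest reads of the called members.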
